A study of Rattus norvegicus with 6 samples.

Results

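NRF2, encoded by Nfe2l2, and 9 genes of the antioxidant defence (Nqo1, Hmox1, Gclc, Gclm, Txnrd1, Srxn1, Gpx2, Cat and Sod2) were followed in the jejunum of control and stressed rats. The 10 genes were listed by name and not by a threshold on measured values, though with earlier results of these data known, out of 13893 genes named on the array. Every gene had at least 1 probe, Txnrd1 had 3, and all 12 member probes passed the filter on dim probes, Gclm through the stressed group alone. The control group and the 3-day stress group (S3d) each held 3 samples, and each sample was RNA of whole jejunum pooled from 3 male Sprague-Dawley rats aged 6 weeks and weighing 200 ± 20 g. S3d rats were kept at 35°C on a platform shaken at 0.1 g for 2 h daily on 3 days, and control rats stayed at 25°C without stress. The labels give 10 rats per group, while the study's text gives another number. The comparison addresses how the jejunum responds to combined heat and shaking.

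NRF2 is a transcription factor of the basic leucine zipper family. In unstressed cells KEAP1 holds it in the cytoplasm and presents it to a CUL3 ubiquitin ligase for degradation, and oxidants or electrophiles release it. NRF2 then enters the nucleus, pairs with a small MAF protein and binds antioxidant response elements, where it competes with the repressor BACH1. Its known target genes make and reduce glutathione, reduce thioredoxin, detoxify quinones and degrade heme. Much of NRF2's control acts on the protein, which an mRNA array does not measure. The intestinal epithelium meets oxidants from food, microbes and its own metabolism, and heat is known to reduce its blood supply.

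The arrays were single-colour Agilent arrays of 45018 spots. Values are log2 processed signals relative to the 75th percentile of their array, so a value of 0 is the 75th percentile and levels of different probes are not comparable. That percentile lay between 415 and 430 on the arrays labelled control and between 1458 and 1558 on those labelled S3d. All 3 arrays of a group shared a slide of their own, scanned at another time than the other slide, so slide, scan and group cannot be told apart. Pearson's r over 31137 probes was 0.993 to 0.995 within the control group, 0.984 to 0.994 within S3d and 0.925 to 0.939 between groups. The p-values measure the spread between 3 pools per group.

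The group labels of the scanner files are exchanged against those of the deposited normalized table. With replicate numbers unchanged, every control column of that table followed an S3d scanner file and every S3d column a control file (Spearman's rho at least 0.99995, against 0.941 to 0.948 with its own file). No sample was reassigned. A positive log2 fold change here is a higher signal on the arrays labelled S3d by their scanner files, and every member probe had the opposite sign in the normalized table by its own labels. The study names no member among its changed genes. Its array directions for other genes run with the normalized table, and so does the direction in which it describes its RT-PCR of other genes, which was not analysed here. Higher and lower refer to these labels throughout, and the sizes and errors do not depend on them.

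One array stood apart. On the array labelled S3d 1, Prss1 (trypsinogen, made by the exocrine pancreas) was at 8.79, against -2.73 to 0.88 on the other 5 arrays, and Cpa1, another pancreatic enzyme, was at 7.08, against -8.20 to -6.85. Cpa1 was well above background on that array alone. Of 8 enterocyte markers, 6 were lower and 1 higher in S3d, and their summed signal (in units of the 75th percentile) was 2129 to 2427 on control arrays and 1055 to 1105 on S3d arrays. The change of the brightest markers depended on the scaling. Apoa4 changed by -1.42 with 75th percentile scaling and by -0.07 with quantile normalization, and Fabp2 by -1.09 and 0.12. Of the tested markers of other cells, each by its brightest probe, 4 of 4 lymphocyte markers were lower (summed signal 1.67 to 1.97 on control and 0.894 to 0.914 on S3d arrays), and of 5 smooth muscle markers 1 was higher and 2 lower (115.95 to 140.71 and 107.46 to 127.75). Probes of a marker could disagree, since Ptprc changed by -2.64 on its brightest probe and by -0.53 to 0.69 on its others, and Myh11, the higher smooth muscle marker, by 0.98 and -0.92. In whole tissue, fewer cells of a type and less RNA per cell cannot be told apart.

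Across the whole array 23202 of 31367 tested probes passed the adjusted p of 0.05 in limma, which is 74.0%, with 39.5% higher and 34.5% lower in S3d. Against this background, 8 of the 12 member probes passed (66.7%), 4 higher and 4 lower. With each gene taken by its brightest probe, 7 of 10 genes passed. Nfe2l2, Nqo1, Gclc and Gclm rose, Hmox1, Srxn1 and Gpx2 fell, and Txnrd1, Cat and Sod2 did not pass. Gclm is counted here by its fit, though its control arrays were at background. The median log2 fold change of the 10 genes was 0.17, beside 0.08 over all tested probes. The groups did not overlap on 9 of 12 member probes, beside 78.3% of all tested probes. The shares of member probes called and of non-overlapping probes were thus near those of the whole array. Without the array labelled S3d 1 the same 8 member probes passed in the same directions.

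**Figure D1:**
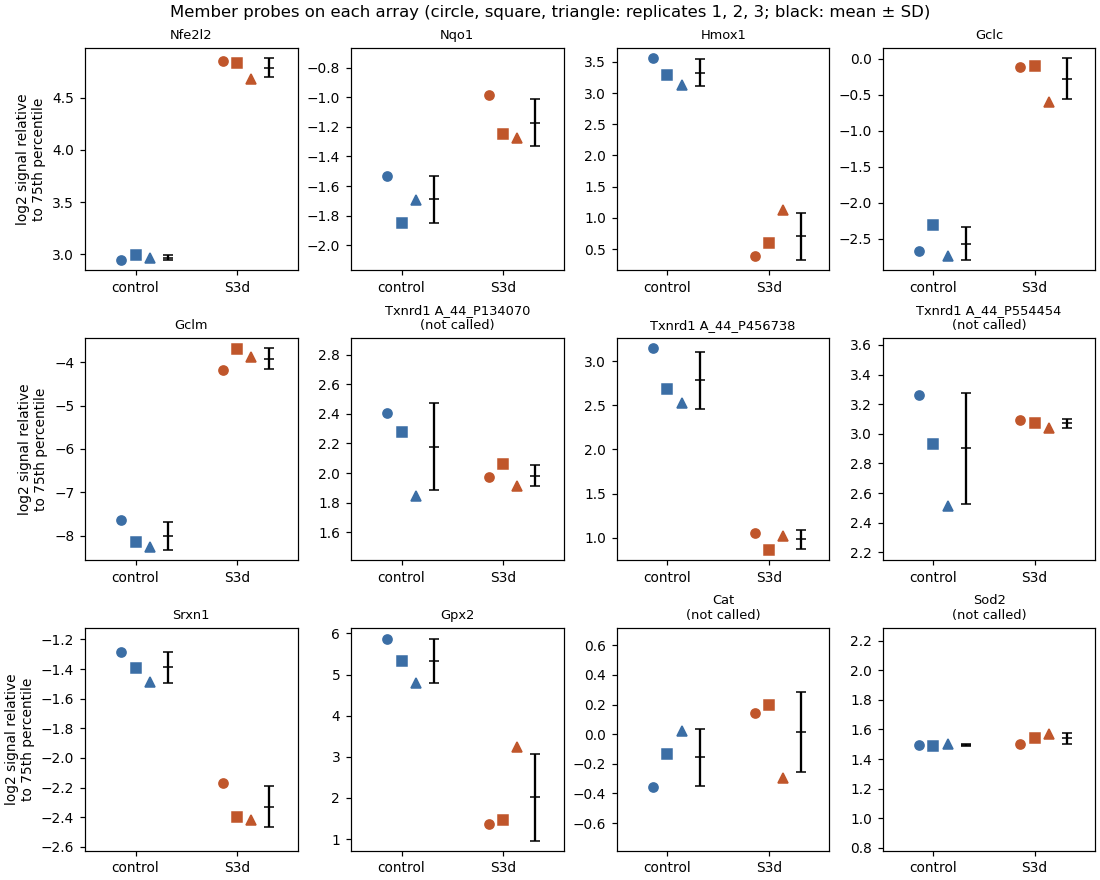
Log2 processed signal relative to the 75th percentile (vertical axis, a scale of its own in each panel spanning at least 1.5 units) for the 12 member probes on the 3 control and 3 S3d arrays by scanner file label, with mean ± SD in black. Nfe2l2, Gclc and Gclm are separated upward and Hmox1, Gpx2, Srxn1 and 1 of 3 Txnrd1 probes downward, while Cat overlaps between the groups and Sod2 differs by 0.04; the control values of Gclm were not well above background.

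Nfe2l2, the gene of NRF2 itself (probe A_43_P14931, NM_031789), measured 2.95, 2.99 and 2.96 on control arrays 1 to 3 and 4.85, 4.83 and 4.68 on S3d arrays 1 to 3. The control arrays lay within 0.04 of each other and every S3d array was far above them. The means were 2.96 ± 0.02 and 4.79 ± 0.09 (SD, n = 3 each). Nfe2l2 rose by a log2 fold change of 1.82 (standard error 0.071, 95% interval 1.65 to 2.00, adjusted p = 1.4e-05), which is 3.54-fold. A larger rise was seen in 2355 of the 31367 tested probes. By the labels of the normalized table the change was -2.18. The rise was 1.79 without the array labelled S3d 1.

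The genes whose pattern over the 6 arrays was most like that of Nfe2l2 were Serpini1 (Pearson's r = 0.9999), Emcn (r = 0.9997) and Gucy1b1 (r = 0.9997). Serpini1 encodes neuroserpin, Emcn an endothelial sialomucin and Gucy1b1 a subunit of soluble guanylate cyclase. Of 11462 genes, 724 had an r over 0.99 with Nfe2l2, all 6 arrays being split into the same 2 slides.

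Glutathione is made in a rate-limiting step by glutamate-cysteine ligase, whose catalytic subunit is encoded by Gclc and whose modifier subunit is encoded by Gclm. Gclc (A_44_P228874, NM_012815) measured -2.66, -2.31 and -2.73 on the control arrays and -0.12, -0.11 and -0.61 on the S3d arrays. The lowest S3d array was well above the highest control array. Gclc rose from -2.57 ± 0.23 to -0.28 ± 0.29 (SD, n = 3), a log2 fold change of 2.29 (standard error 0.18, 95% interval 1.84 to 2.73, adjusted p = 9.3e-05) or 4.89-fold, and by 2.21 without S3d 1. In the normalized table the change was -2.21.

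Gclm (A_44_P1011898, NM_017305) was a dim probe. Its processed signal was 2.07, 1.52 and 1.40 on the control arrays and 80.3, 120 and 106 on the S3d arrays, and it was well above background on none of the control arrays and on all S3d arrays. The control side is therefore only a bound, and the signal was at least 4.44-fold higher on the S3d arrays, with the bound set from the lowest signals well above background on the control arrays. On the log2 scale the measured values were -7.65, -8.14 and -8.26 against -4.18, -3.70 and -3.88. The probe passed the filter on dim probes through the S3d arrays alone. Its adjusted p of 2.1e-05 in limma thus sets signals at background against signals above it, and gives no support beyond the bound. The direction of Gclm turned under the normexp background correction, which adds an offset of 50 to each spot (-0.13 with the extreme backgrounds of 1 array replaced), whereas Gclc stayed higher there.

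Nqo1 (A_44_P476733, NM_017000) encodes a quinone reductase that is widely read as an NRF2 target. Its values were -1.53, -1.85 and -1.69 on the control arrays and -0.99, -1.25 and -1.28 on the S3d arrays. The groups did not overlap, but the spread within each was a large part of the difference. Nqo1 rose from -1.69 ± 0.16 to -1.17 ± 0.16 (SD, n = 3), a log2 fold change of 0.52 (standard error 0.12, 95% interval 0.23 to 0.81, adjusted p = 0.0084). This was the smallest change among the member probes that passed. It missed the threshold when each array was centred on its median (0.32, adjusted p = 0.061) and under normexp with the extreme backgrounds of 1 array replaced (0.15, adjusted p = 0.23), and it was -0.44 in the normalized table.

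Hmox1 (A_43_P11472, NM_012580) encodes the inducible heme oxygenase, which opens the heme ring to give biliverdin, iron and carbon monoxide. It measured 3.56, 3.29 and 3.13 on the control arrays and 0.39, 0.60 and 1.12 on the S3d arrays, so its direction was opposite to that of Nfe2l2, Gclc and Gclm. Hmox1 fell from 3.33 ± 0.22 to 0.70 ± 0.38 (SD, n = 3). The log2 fold change was -2.63 (standard error 0.21, 95% interval -3.15 to -2.10, adjusted p = 0.00010), or 6.17-fold lower, and 245 of the tested probes had a larger fall. The change was -2.47 without S3d 1 and 2.47 by the labels of the normalized table.

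Markers of other cells that handle heme did not share 1 direction. Of 3 red blood cell markers tested, Hbb (beta globin) changed by -3.76 (adjusted p = 0.00021), Alas2 (heme synthesis in erythroid cells) by -1.65 and Slc4a1 (band 3) by 0.34, and their summed signal was 3.02 to 3.46 on control and 0.504 to 0.808 on S3d arrays. Of 4 macrophage markers tested, Cd68 fell by 0.50, Csf1r rose by 0.87, and Cd163 and Adgre1 did not pass, with a summed signal of 6.38 to 6.48 against 5.64 to 5.73. No red blood cell or macrophage marker tested was at background in either group. Marco was not tested. Their part in the Hmox1 result was not tested.

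Gpx2 (A_44_P500056, NM_183403), the glutathione peroxidase of the gastrointestinal epithelium, reduces hydroperoxides with glutathione. It had the largest fall of the member probes and the widest spread. Its values were 5.87, 5.32 and 4.80 on the control arrays and 1.36, 1.46 and 3.23 on the S3d arrays. The array labelled S3d 3 lay well above the other S3d arrays but below every control array. Gpx2 fell from 5.33 ± 0.54 to 2.02 ± 1.05 (SD, n = 3), by a log2 fold change of -3.31 (standard error 0.56, 95% interval -4.69 to -1.93, adjusted p = 0.0023) or 9.94-fold, and 68 tested probes fell further. Leaving out 1 array at a time gave -3.92 to -2.98. In the normalized table Gpx2 was 3.00 higher in S3d. The enterocyte markers given above moved with it, and their part in this result was not tested.

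Srxn1 (A_42_P703664, NM_001047858) encodes sulfiredoxin, which repairs overoxidized peroxiredoxins. The control arrays were at -1.28, -1.39 and -1.49 and the S3d arrays at -2.17, -2.40 and -2.42, with narrow groups that did not overlap. Srxn1 fell from -1.39 ± 0.10 to -2.33 ± 0.14 (SD, n = 3), a log2 fold change of -0.94 (standard error 0.098, 95% interval -1.18 to -0.70, adjusted p = 0.00027) or 1.92-fold, and was 1.06 in the normalized table. Its direction rested on scaling between arrays and was 0.90 without any scaling.

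Txnrd1 (NM_031614), the cytosolic thioredoxin reductase, was read by 3 probes that gave different answers. The brightest probe, A_44_P554454, measured 3.26, 2.93 and 2.51 on the control arrays and 3.096, 3.075 and 3.039 on the S3d arrays, with S3d lying inside the range of the controls. Its log2 fold change was 0.17 (95% interval -0.29 to 0.62, adjusted p = 0.44). Probe A_44_P134070 also overlapped, at 2.41, 2.28 and 1.85 against 1.97, 2.06 and 1.92. Its log2 fold change was -0.20 (95% interval -0.57 to 0.18, adjusted p = 0.28), and it passed lower without control replicate 3 (-0.36) and higher without scaling between arrays (1.65).

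The remaining Txnrd1 probe, A_44_P456738, separated the groups, with 3.14, 2.68 and 2.52 on the control arrays and 1.06, 0.86 and 1.03 on the S3d arrays. It fell by a log2 fold change of -1.80 (standard error 0.17, 95% interval -2.22 to -1.39, adjusted p = 0.00018). The difference between A_44_P456738 and A_44_P554454 on the same array was -0.12 ± 0.13 in controls and -2.09 ± 0.11 in S3d (SD, n = 3), which does not depend on the scaling by a percentile. The difference between A_44_P134070 and A_44_P456738 moved by 1.61 and that between A_44_P134070 and A_44_P554454 by -0.36. For each of the 3 pairs the groups did not overlap and the exact two-sided permutation test gave p = 0.1 (0.1 adjusted over the 3 pairs), the smallest that 3 against 3 arrays allow. Averaged over its probes, Txnrd1 changed by -0.61 (adjusted p = 0.015), so a single direction for this gene depends on the probe. Where on the transcript each probe lies was not analysed here.

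**Figure D2:**
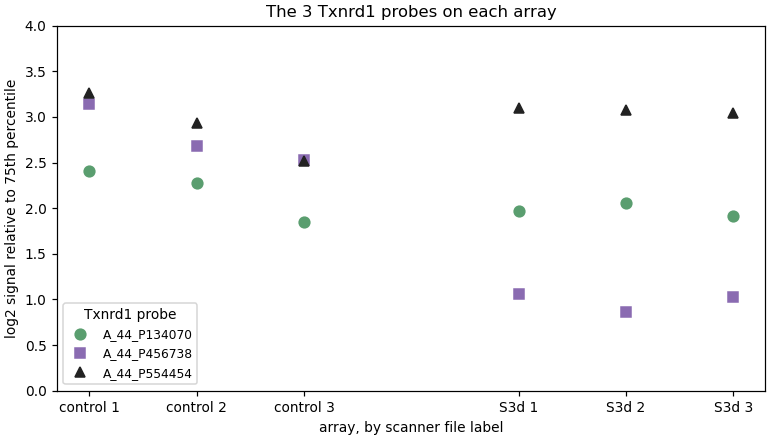
Log2 processed signal relative to the 75th percentile (vertical axis) of the 3 Txnrd1 probes on each of the 6 arrays by scanner file label, 1 symbol per probe. Probe A_44_P456738 drops from 2.52 to 3.14 on control arrays to 0.86 to 1.06 on S3d arrays, while the other probes overlap between the groups; heights of different probes are not comparable with each other.

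Cat (A_44_P362954, NM_012520) encodes catalase, the peroxisomal enzyme that splits hydrogen peroxide. It measured -0.36, -0.13 and 0.02 on the control arrays and 0.14, 0.20 and -0.29 on the S3d arrays, so the groups overlapped. The log2 fold change was 0.17 (standard error 0.17, 95% interval -0.23 to 0.58, adjusted p = 0.38), and it was -0.03 with median centring.

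Sod2 (A_43_P11792, NM_017051), the manganese superoxide dismutase of mitochondria, was nearly level on all arrays. It measured 1.497, 1.490 and 1.502 on the control arrays and 1.502, 1.545 and 1.570 on the S3d arrays. The lowest S3d array was level with the highest control array to 3 decimals, and the log2 fold change was 0.04 (standard error 0.057, 95% interval -0.10 to 0.18, adjusted p = 0.52). Sod2 was -0.16 and past the threshold under median centring, which moved the median of all tested probes to -0.12.

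Scaling between arrays set part of these directions. With quantile normalization the same 8 member probes passed, with 4 higher and 4 lower. Median centring gave 3 higher and 5 lower. Without any scaling 96.0% of all tested probes passed, 94.2% higher and 1.86% lower, and the median change over the tested probes was 1.93. On that scale 9 member probes were higher, and Hmox1 (-0.78) and Gpx2 (-1.47) were the only member probes called lower, as 582 of all tested probes were. Srxn1 (0.90) and the Txnrd1 probes A_44_P134070 (1.65) and A_44_P456738 (0.04) turned upward without scaling. In the normalized table by its own labels 70.1% of the tested probes passed, 35.3% higher and 34.7% lower, and it called 4 member probes in each direction.

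**Figure D3:**
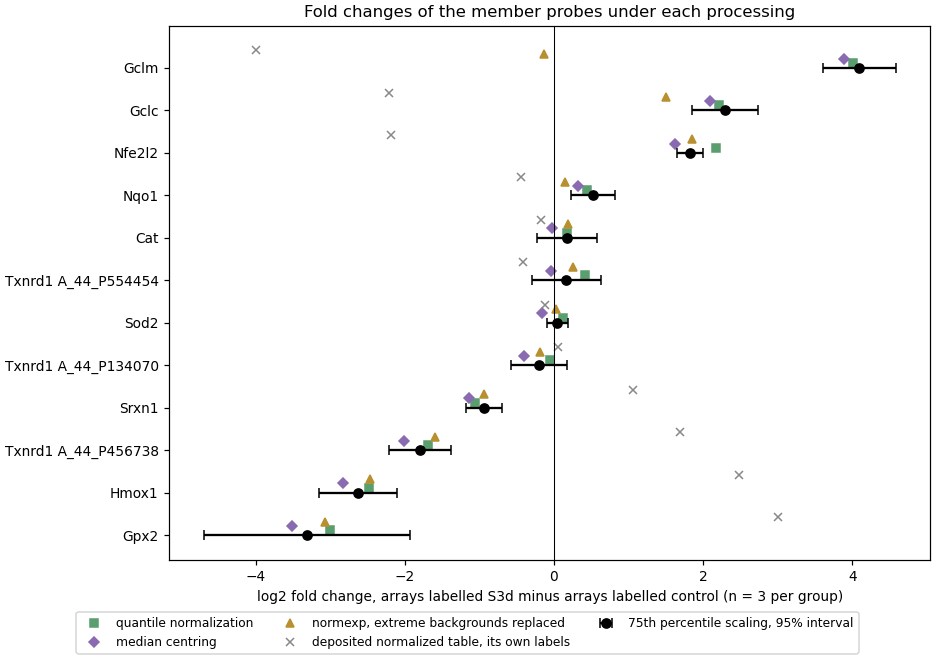
Log2 fold change of each member probe (horizontal axis, arrays labelled S3d minus arrays labelled control, n = 3 per group) with 75th percentile scaling and its 95% interval in black, and under 4 other processings in colour or grey. Gclc, Nfe2l2, Srxn1, Hmox1 and Gpx2 keep their side of 0 under quantile normalization, median centring and normexp, Gclm (dim in controls) is near 0 under normexp, and the normalized table mirrors the signs.

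Antioxidant response elements were looked for by the letters TGACNNNGC, the core of the element, on either strand of the RefSeq promoter windows of rat assembly GRCr8. Each window covers 300 bases, from 250 before to 50 after a gene's start. A window was given for 9 members, all except Hmox1. The letters were present in 5 of these 9 members, in 14 of 50 other pathway genes (28.0%) and in 13.1% of all 27457 genes with a window. These stretches are shown because they hold the letters by which NRF2 is known to bind, and the match is in capitals (reverse complement GCNNNGTCA where it lies on the opposite strand). All are read 5′ to 3′ on the gene's strand.
Nfe2l2, chr3:81028950-81028977, minus strand: tgctccgactagccatTGACGCCGCctc
Gclm, chr2:213031947-213031987, plus strand: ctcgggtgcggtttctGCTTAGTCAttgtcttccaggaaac
Txnrd1, chr7:22755958-22755998, minus strand: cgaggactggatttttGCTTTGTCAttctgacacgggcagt
Gpx2, chr6:101230022-101230062, minus strand: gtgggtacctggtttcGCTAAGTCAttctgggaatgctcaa
Sod2, chr1:50050179-50050219, minus strand: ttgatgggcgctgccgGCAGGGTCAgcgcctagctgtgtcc

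The first base of the match lies 172 bases before the start in Gclm, 78 before it in Txnrd1 (in 1 of its 2 windows), 35 before it in Sod2, 13 before it in Gpx2 and 39 after it in Nfe2l2. Among the members that hold the letters, Nfe2l2 and Gclm rose, Gpx2 fell, Txnrd1 depended on the probe and Sod2 did not pass, so the matches did not go with 1 direction. The windows of Nqo1, Gclc, Srxn1 and Cat hold no match, which says only that these letters are not in this window. None of the 5 matches holds the overlapping AP-1 letters TGACTCA. A match of letters is a description and not a binding site.

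Beyond the members, 61 other genes of the pathway in 9 lists were counted. Of the 58 tested, 44 passed (75.9%, near the 74.0% of all probes), 15 higher and 29 lower. Their median log2 fold change was -0.18. This split depended on the scaling, since quantile normalization gave 27 higher and 15 lower (median 0.14) and median centring 13 and 34, while without any scaling 54 were higher and none lower. Of the 44 genes that passed, 9 changed sign with quantile normalization, namely Cul3, Prdx2, Sod1, Mgst2, Akr7a3, Tkt, Idh1, Fth1 and Ftl1.

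**Figure D4:**
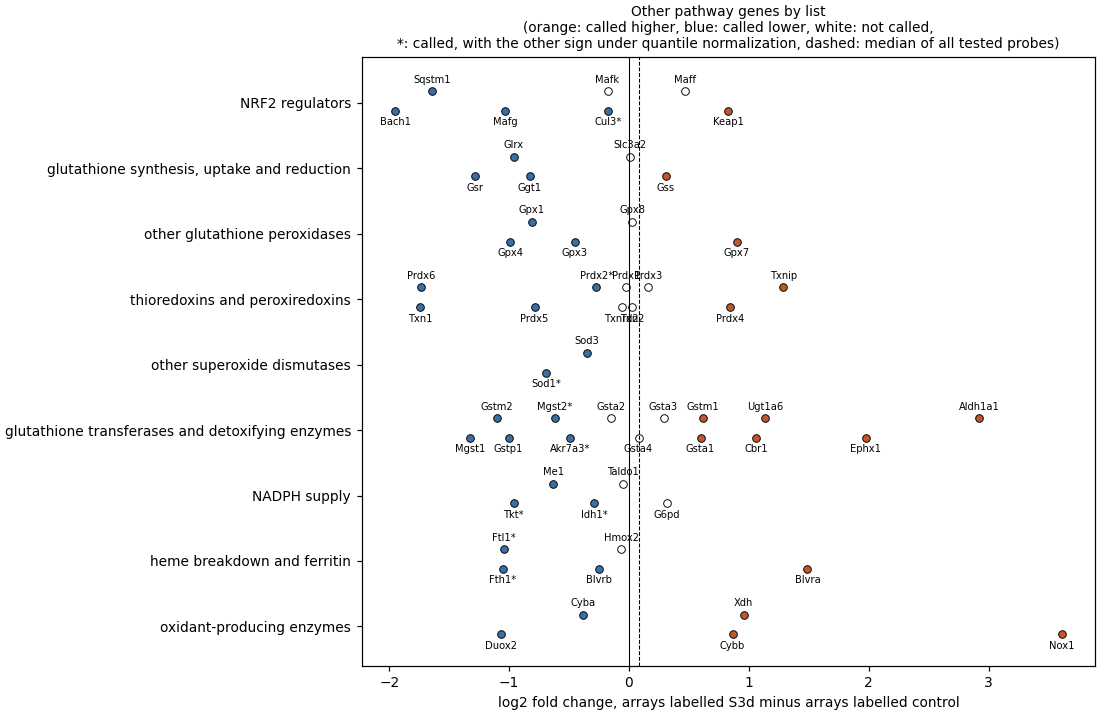
Log2 fold change (horizontal axis, arrays labelled S3d minus arrays labelled control) of the 58 other pathway genes tested, 1 point per gene by its brightest probe, in 9 lists, with the median of all tested probes dashed. Orange genes were called higher (15), blue lower (29) and white not called (14), and an asterisk marks the 9 called genes whose sign turned with quantile normalization.

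Among 7 regulators of NRF2, 1 was higher, 4 were lower and 2 did not pass. Keap1, the adaptor that holds NRF2 for degradation, rose by 0.83 (adjusted p = 0.00018). Bach1, the repressor that competes at antioxidant response elements, fell by 1.95 on the log2 scale (adjusted p = 1.3e-05), and its other probe by 2.19. Sqstm1 (p62, which binds KEAP1 and takes it to autophagosomes) fell by 1.64 (adjusted p = 0.00011), with its other probes between -1.59 and -0.51. Nfe2l2 and Keap1 were thus higher and Bach1 lower, and these 3 kept their direction with quantile normalization (2.18, 0.86 and -2.02) and median centring. Sqstm1 (-1.39 with quantile normalization) and the small MAF gene Mafg (-1.03, and -0.92 with quantile normalization) likewise stayed lower under both.

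For the use of glutathione, Gss, which completes its synthesis after Gclc and Gclm, rose by 0.31 (adjusted p = 0.010). Gsr, which reduces oxidized glutathione, fell by 1.29 (adjusted p = 7.2e-05), and Glrx (glutaredoxin) by 0.96. Slc3a2, the heavy chain of the cystine transporter, changed by 0.01 and was the only tested gene of this list of 5 that did not pass. With quantile normalization Slc3a2 was at 0.39 and passed as higher. Its partner light chain Slc7a11 was not well above background on all arrays of either group and was not tested. Of the 5 other glutathione peroxidases, Gpx7 of the endoplasmic reticulum rose by 0.90 (adjusted p = 0.00030), whereas Gpx4, which reduces lipid hydroperoxides in membranes, fell by 0.99 (adjusted p = 0.00016) and Gpx1 by 0.81. Gpx3 also passed lower, and Gpx8 changed by 0.03 (adjusted p = 0.85). The fall of Gpx2 was larger than that of any of these 5.

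In the thioredoxin and peroxiredoxin list, the system that Txnrd1 and Srxn1 serve, 2 of 10 genes were higher and 4 lower. Txnip, which binds and inhibits thioredoxin, rose by 1.29 (adjusted p = 0.00015), and Prdx4, the peroxiredoxin of the endoplasmic reticulum, by 0.84 (adjusted p = 0.014). Txn1, the cytosolic thioredoxin, fell by 1.74 (adjusted p = 2.3e-05) and Prdx6 by 1.73 (adjusted p = 1.8e-05). Both falls remained with quantile normalization, at -0.72 and -1.43. The split of the list did not, since Prdx1 (0.58), Prdx3 (0.49), Txn2 (0.35) and Prdx2 (0.23) then passed as higher. Prdx5 (-0.11) no longer passed. Of the other superoxide dismutases, Sod1 (cytosol) fell by 0.69 and Sod3 (extracellular) by 0.35, but Sod1 was at 0.02 with quantile normalization.

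The glutathione transferases and other detoxifying enzymes split, with 6 higher, 5 lower and 3 of 14 not passing. Aldh1a1, a retinal and aldehyde dehydrogenase, rose by 2.92 (adjusted p = 0.00018), and Ephx1, the microsomal epoxide hydrolase, by 1.98 (adjusted p = 0.00038). Mgst1, a membrane-bound transferase, fell by 1.32 (adjusted p = 2.1e-05) and Gstm2 by 1.10 (adjusted p = 0.0011). These 4 kept their sign with quantile normalization. In the supply of NADPH, on which Nqo1, Txnrd1 and Gsr draw, none of 5 was higher and 3 were lower, with Tkt (transketolase) at -0.96 but 0.07 with quantile normalization, and Me1 (malic enzyme) at -0.63 but 0.14 on its other probe.

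Downstream of Hmox1, Blvra, which turns biliverdin into bilirubin, rose by 1.49 (adjusted p = 2.5e-05). The ferritin chains Fth1 and Ftl1, which store the released iron, each fell by 1.05 with 75th percentile scaling and were at 0.05 and 0.24 with quantile normalization. The other probe of Fth1 changed by -0.09, and the other probes of Ftl1 by -1.08 to -0.16. Hmox2, the constitutive heme oxygenase, changed by -0.07 (adjusted p = 0.39). It did not pass, but with quantile normalization it was at 0.32 and passed as higher. The difference between Hmox1 and Hmox2 was not tested.

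Of 5 enzymes that produce oxidants, 3 were higher and 2 lower. Nox1, the epithelial NADPH oxidase of the gut, rose by 3.61 (adjusted p = 0.00039), with -4.79, -5.29 and -4.56 on the control arrays and -0.63, -1.05 and -2.12 on the S3d arrays. Its control signal was low, and the rise was 1.69 under normexp with the extreme backgrounds of 1 array replaced. Xdh (xanthine dehydrogenase) rose by 0.96 (adjusted p = 0.0017). Duox2, the dual oxidase of the epithelial surface, fell by 1.06 (adjusted p = 0.024), and Cyba, the p22phox partner of NADPH oxidases, by 0.38 (adjusted p = 0.0078), with -0.03 for Cyba under quantile normalization.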

How the data were processed

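Jejunal RNA of 3 control and 3 S3d samples, each pooled from 3 rats, was hybridised in 1 colour. Per the labels, scanner output came from Agilent Feature Extraction 10.7. The deposited intensity values are the processed signal, background-corrected but not normalized between arrays, with the spot and local background signals. The authors also deposited a log2 table, which its values show to be quantile-normalized (its sorted columns differ by at most 0.0025, with a median of 6.65 in each). How it was made is not given in the sources used here.

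Control and outlier-flagged spots were left out and repeated spots averaged. Log2 processed signal minus each array's 75th percentile was fitted in limma 3.58.1 (R 4.3.3, lmFit and eBayes, no block) over 31367 of 41012 probes, those read as well above background by every control array or by every S3d array, with Benjamini-Hochberg adjustment over all of them. An adjusted p under 0.05 was the threshold for a call. The fit had been tested on simulated data. Without depth in arrays, the number of arrays limits the precision. No spot was saturated, and 69.1 to 73.7% of spots were well above background on control arrays and 77.5 to 81.5% on S3d arrays. Probes were named through RefSeq accessions (GRCr8), which gave 17610 of them a symbol.

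The members, given by name, and the gene lists were chosen with earlier results of these data known. All members and probes are named. Of each list, up to 2 called genes with the largest change in each direction and no overlap between groups are named, and the gene not called where there is 1. Further genes of a list are named where quantile normalization is set beside the main scaling. For Nfe2l2, the 3 genes with the highest Pearson's r are named. Other scalings, background correction, filters, tests, thresholds and the leaving out of each array were tried.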

Additional observations from a re-analysis of the deposited data

How the results depend on the processing

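The 3 counts of calls (all probes, member probes, other pathway genes) stayed within 1.5 times of 23202, 8 and 44 under the other settings except normexp as planned, which gave 1752, 1 and 6. Its fit on control replicate 3 was set by 8 spots with a local background over 10 times the median (up to 54705, against 117 at most on other arrays). With those backgrounds replaced, a setting chosen after seeing the data, the counts were 25558, 6 and 45. Leaving out 1 array at a time gave 21442 to 22813 probes, 8 to 9 member probes and 38 to 44 pathway genes. Of all calls, 53.4% were higher with 75th percentile scaling, 49.6% with quantile normalization, 42.8% with median centring, 98.1% without scaling and 25.8% under the repaired normexp, where the median of all tested probes was -0.42. With the replicate number as a block, 22211 probes, 8 member probes and 41 pathway genes were called, and it changed no member's call. The numbers do not pair the samples (correlations of same-numbered deviations 0.02, 0.02 and -0.05).

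By the labels of the normalized table every member reversed: Nfe2l2 -2.18, Nqo1 -0.44, Hmox1 2.47, Gclc -2.21, Gclm -4.00, Srxn1 1.06, Gpx2 3.00, Cat -0.17, Sod2 -0.12, and Txnrd1 probes A_44_P134070 0.055, A_44_P456738 1.68 and A_44_P554454 -0.42. Normexp as planned reversed Nqo1 (-0.18), Gclm (-1.01) and A_44_P134070 (0.10), and the repaired normexp reversed Gclm (-0.13) and ended the call of Nqo1 (0.15). No scaling reversed Srxn1 (0.90), A_44_P134070 (1.65) and A_44_P456738 (0.043). Median centring reversed A_44_P554454 (-0.035), Cat (-0.029) and Sod2 (-0.16). A_44_P554454 also reversed without control replicate 3, and leaving out 1 array at a time gave it -0.027 to 0.35, and the mean over Txnrd1 probes was -0.61. Beyond the exchanged labels and these settings, the cause was not tested. Over all single member probes and alternatives, 181 values kept direction and call, and 24 reversed, whatever became of their call. Of the values that kept direction, 7 lost their call and 4 gained one. Dim signal limits Gclm, whose control arrays were at background, so its log2 values, -4.00 among them, are not measured sizes.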
